A study of Mus musculus with 6 samples.

Results

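The heat shock proteins, their DnaJ partners and the heat shock factors Hsf1 and Hsf2 were examined in regulatory T cells (Tregs) that lacked DJ-1, set against Tregs of wild-type littermates. Members were the genes whose probe sets carried 1 symbol that begins with Hspa, Hspb, Hspd, Hspe, Hsph or Hsp90, or with Dnaja, Dnajb or Dnajc, followed by a number, together with Hsf1 and Hsf2. This gave 74 genes, measured by 855 probe sets, of 23152 genes with a single symbol on the array. A filter on dim genes left 64 of the 74 for testing. The cells were CD4+CD25high Tregs sorted from the spleens of untreated male mice aged 45 weeks and kept free of specific pathogens, 3 of genotype DJ-1-/- (KO, the gene Park7) and 3 littermates of genotype DJ-1+/+ (WT), with 1 array per mouse. The labels give DJ-1-/- as the genotype of the mouse and name no deletion limited to Tregs.

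No chaperone gene passed the test in DJ-1-deficient Tregs. The gene for the HSP110 protein HSPH1 was 0.75 log2 units above WT, that for the HSP40 protein DNAJA1 0.61 above and that for the cytosolic HSP90 alpha protein 0.38 above. The DNAJC genes Dnajc9, Dnajc27 and Dnajc18 lay 0.39 to 0.54 below WT. All adjusted p-values of the 64 genes were between 0.307 and 0.991 (limma, Benjamini-Hochberg over 13891 genes).

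Chaperones bind unfolded or partly folded proteins and keep them from aggregating. HSP70 proteins do this in cycles of ATP binding and hydrolysis, in which J-domain (DnaJ) proteins deliver substrates and start hydrolysis, HSP110 proteins exchange the nucleotide, and HSP90 takes over many of the clients, among them kinases and steroid receptors. The heat shock factor HSF1 binds heat shock elements in DNA, inverted repeats of the unit nGAAn, and drives the heat-inducible members of the family. Each compartment has members of its own: HSPA5 and HSP90B1 in the endoplasmic reticulum, HSPA9 and HSPD1 with HSPE1 in mitochondria. DJ-1 itself is a small protein that guards against oxidative stress and has been described as a redox-sensitive chaperone.

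Inverted repeats of these units were searched in windows from 250 bases before to 50 bases after the start of each gene (RefSeq, GRCm38.p6), because HSF1 acts through them. Of the 74 members, 59 had a window in that table. A pair of facing units, GAANNTTC or TTCNNGAA (each reads the same on both strands), stood in 23.7% of the 76 member windows and in 15.1% of all 32851 windows. Runs of at least 3 units stood in 7.89% of member windows (6 of 76, from the genes Hsph1, Hspd1, Hspe1 and Dnajb6) and in 0.603% of all windows. A longer run contains the shorter ones, and some genes have several overlapping windows. A match describes these letters only and no binding was measured. The windows of 3 genes with runs of 3 or more units are shown, then those of Dnaja1 and Hspa1b, heat-inducible members with a pair, in which capitals mark the run. They lie at chr5:149636266-149636565 (Hsph1, minus strand), chr1:55087883-55088182 (Hspd1, minus strand), chr5:29735648-29735947 (Dnajb6, plus strand), chr4:40722218-40722517 (Dnaja1, plus strand) and chr17:34959189-34959488 (Hspa1b, minus strand).
Hsph1: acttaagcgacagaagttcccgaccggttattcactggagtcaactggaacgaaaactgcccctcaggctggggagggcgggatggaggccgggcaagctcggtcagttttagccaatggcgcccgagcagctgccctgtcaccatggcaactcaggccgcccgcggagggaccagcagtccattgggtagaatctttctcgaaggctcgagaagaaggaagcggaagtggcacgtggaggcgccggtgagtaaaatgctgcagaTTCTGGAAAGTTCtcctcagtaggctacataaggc
Hspd1: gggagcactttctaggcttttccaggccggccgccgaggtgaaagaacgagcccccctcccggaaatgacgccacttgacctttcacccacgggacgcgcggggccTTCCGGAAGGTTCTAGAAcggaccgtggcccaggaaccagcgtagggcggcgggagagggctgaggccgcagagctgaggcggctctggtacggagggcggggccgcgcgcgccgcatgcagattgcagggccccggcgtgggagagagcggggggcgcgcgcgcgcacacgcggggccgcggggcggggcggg
Dnajb6: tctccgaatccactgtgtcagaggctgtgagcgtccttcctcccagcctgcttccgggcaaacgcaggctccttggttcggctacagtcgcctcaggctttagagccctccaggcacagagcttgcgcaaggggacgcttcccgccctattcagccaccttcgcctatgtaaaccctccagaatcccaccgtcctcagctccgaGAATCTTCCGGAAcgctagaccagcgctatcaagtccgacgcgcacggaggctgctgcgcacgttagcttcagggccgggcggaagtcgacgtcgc
Dnaja1: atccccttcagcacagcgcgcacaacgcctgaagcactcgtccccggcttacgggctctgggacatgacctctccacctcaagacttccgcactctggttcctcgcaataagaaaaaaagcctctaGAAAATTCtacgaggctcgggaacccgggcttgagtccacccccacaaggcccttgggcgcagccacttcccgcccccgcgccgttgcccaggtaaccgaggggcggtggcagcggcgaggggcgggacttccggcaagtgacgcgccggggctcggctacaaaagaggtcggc
Hspa1b: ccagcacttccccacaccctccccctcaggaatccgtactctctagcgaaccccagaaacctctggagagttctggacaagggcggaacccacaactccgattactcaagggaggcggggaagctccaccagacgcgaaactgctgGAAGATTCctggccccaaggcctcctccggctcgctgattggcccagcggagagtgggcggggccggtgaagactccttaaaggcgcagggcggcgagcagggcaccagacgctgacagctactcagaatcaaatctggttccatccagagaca
The run of Hsph1 had 3 units and lay after the start of the gene. That of Hspd1 had 4 units, a length found in 8 of all windows, and Hspe1, which encodes its co-chaperonin HSP10 on the opposite strand, shares 285 bases of the window and the run with it. The genes of this pair differed from WT with opposite signs, by -0.29 (Hspd1) and 0.15 (Hspe1), as given below with their errors. Dnajb6, with 3 units, differed by 0.11.

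Values are log2(intensity + 16) of the deposited intensities, the median over a gene's probe sets, and differences are KO minus WT. The constant shrinks differences of dim genes. Targeting was visible in the data: Park7 had 6.06, 5.96 and 5.71 in KO Tregs, against 9.48, 9.27 and 9.70 in WT Tregs (difference -3.57, adjusted p = 2.06e-05, limma). The defining Treg factor Foxp3 had 12.69 to 12.75 in KO and 12.64 to 12.68 in WT Tregs (adjusted p = 0.886), and Cd4 and Cd3e were present on all 6 arrays. Median intensities were 88.6 to 99.9 in KO arrays and 95.3 to 100.2 in WT arrays. The array KO1 stood apart: its mean correlation with the other arrays was 0.951, against 0.957 to 0.964 for the rest, and the first principal component (45.6% of the variance) separated it from them. Over all genes 0.274% (38 of 13891) passed an adjusted p of 0.05, and the median difference of all genes was -0.05. With 3 mice in each group an exact permutation test of 1 gene cannot go below p = 0.10. As in any bulk sample, fewer cells that express a gene and less of its RNA per cell cannot be told apart here.

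Against this background the 64 tested chaperone genes had no member past the adjusted threshold. At an unadjusted p of 0.05, 2 genes were higher in KO Tregs (3.12%, beside 2.99% of all genes) and 3 were lower (4.69%, beside 7.67% of all genes). In 3 genes every KO array lay above every WT array (4.69%, beside 6.09% of all genes), and in 6 every KO array lay below (9.38%, beside 11.3%). These shares were near or under the background. Negative differences were found for 38 members and positive ones for 26, so 59.4% were negative, against 59.6% of all genes. The median difference of the members was -0.07 and turned to 0.01 without KO1, while that of all genes was -0.05 and became -0.01. The 95% interval of 59 members spanned 0, and that of 56 members lay wholly within 1 log2 unit of 0.

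**Figure D1:**
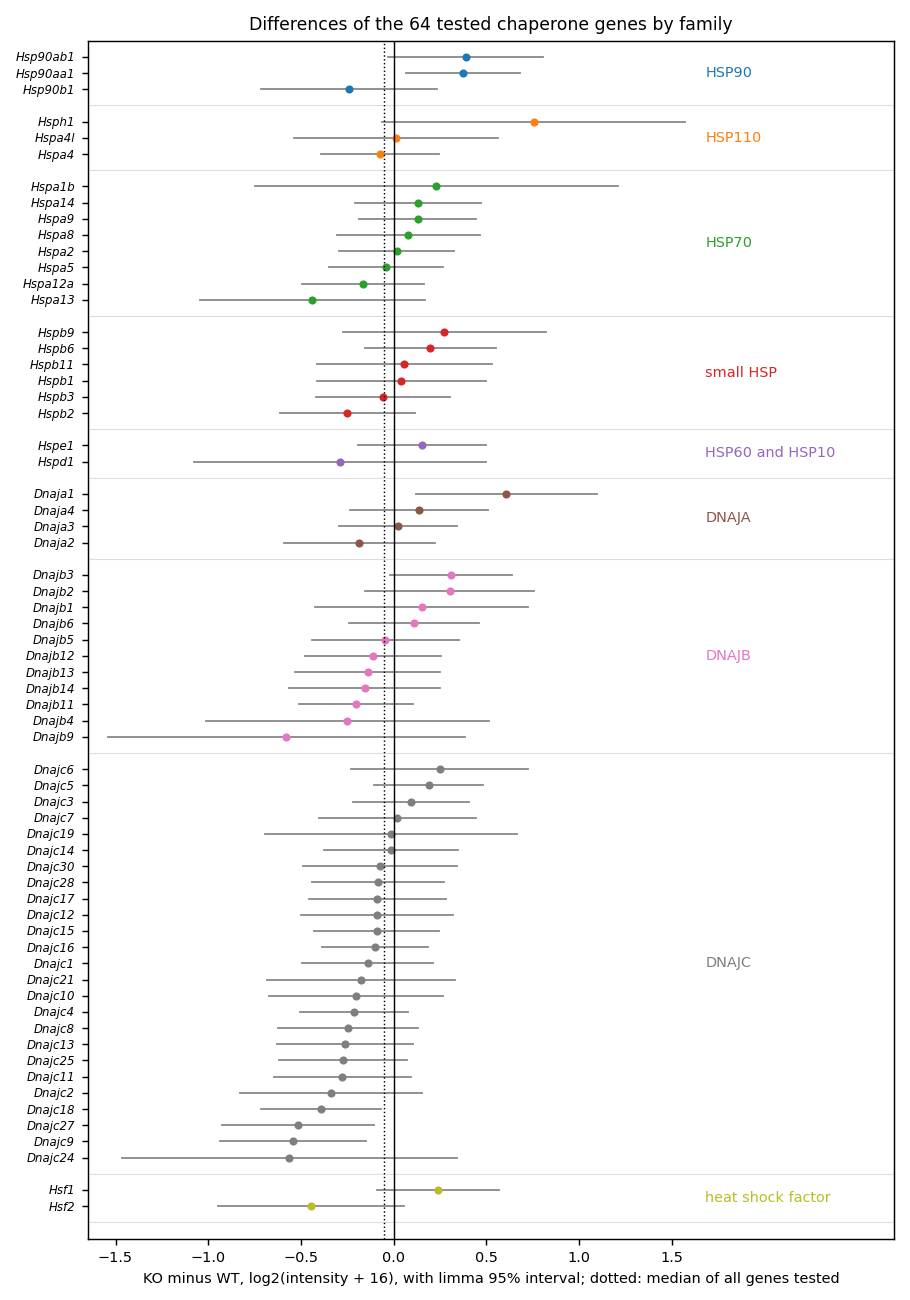
Each point is 1 tested chaperone gene, placed on the x axis by its KO minus WT difference in log2(intensity + 16), with limma's 95% interval as a bar, grouped by family from HSP90 at the top to the heat shock factors at the bottom; the dotted line marks the median of all tested genes, -0.05. The intervals of Hsp90aa1 and Dnaja1 lie above 0 and those of Dnajc9, Dnajc27 and Dnajc18 below it, and all 5 miss the adjusted threshold.

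Among the heat shock factors, Hsf1, the main activator of heat shock genes, had 10.06, 10.04 and 9.79 in KO Tregs, against 9.61, 9.69 and 9.88 in WT Tregs. KO3 lay below WT3, so the groups overlapped. The difference was 0.24 (95% interval -0.09 to 0.57, adjusted p = 0.609, limma), with 15 of its 16 probe sets higher in KO. Hsf2, a related factor that can form trimers with HSF1, had 6.74, 7.53 and 7.47 in KO Tregs, against 7.49, 7.95 and 7.64 in WT Tregs. The array KO1 was far below all others here. Its difference was -0.45 (-0.95 to 0.06, adjusted p = 0.538) and shrank to -0.19 without KO1. Of 3 further tested genes that act with these factors or resemble them, none had an unadjusted p under 0.05. Hsf4 differed by 0.24, Hsf2bp by 0.09 and Hsbp1, which binds the trimerisation domain of HSF1, by -0.03.

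The cytosolic HSP90 genes were higher in KO Tregs by value. Hsp90aa1, the heat-inducible alpha form, had 9.64, 9.81 and 9.77 in KO Tregs, against 9.23, 9.38 and 9.48 in WT Tregs. All KO arrays stood above all WT arrays. The difference was 0.38 (95% interval 0.07 to 0.68, unadjusted p = 0.0215, adjusted p = 0.365, limma), a ratio of 1.30 on the scale with the constant, and 0.17 with the mean of probe sets. Its 14 probe sets did not move as 1: 10 were higher and 4 lower, and in KO1 3 of them exceeded all WT arrays while 6 lay below all WT arrays. Hsp90ab1, the constitutive beta form, had 11.47, 11.44 and 10.83 in KO Tregs, against 10.93, 10.76 and 10.89 in WT Tregs. By gene value its KO arrays split into 2 high ones and KO3, which lay among the WT arrays. Of its 9 probe sets 5 were higher and 4 lower in KO. In KO1 only 1 of them exceeded all WT arrays, while 6 lay below all WT arrays. The difference of the gene value was 0.39 (-0.03 to 0.81, adjusted p = 0.513), and 0.10 with the mean of probe sets. Hsp90b1, the form of the endoplasmic reticulum, had 10.07, 10.85 and 10.59 in KO Tregs, against 10.89, 10.87 and 10.48 in WT Tregs. It differed by -0.24 (adjusted p = 0.716), which became -0.03 without KO1, the array in which 15 of its 18 probe sets lay below all WT arrays. In KO3 10 of the 18 did so and in KO2 2, and 17 of the 18 were lower in KO on average. With the mean of probe sets the difference was -0.32. The median of the 3 HSP90 genes was 0.38, and it was 0.10 when a gene's value was the mean of its probe sets.

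**Figure D2:**
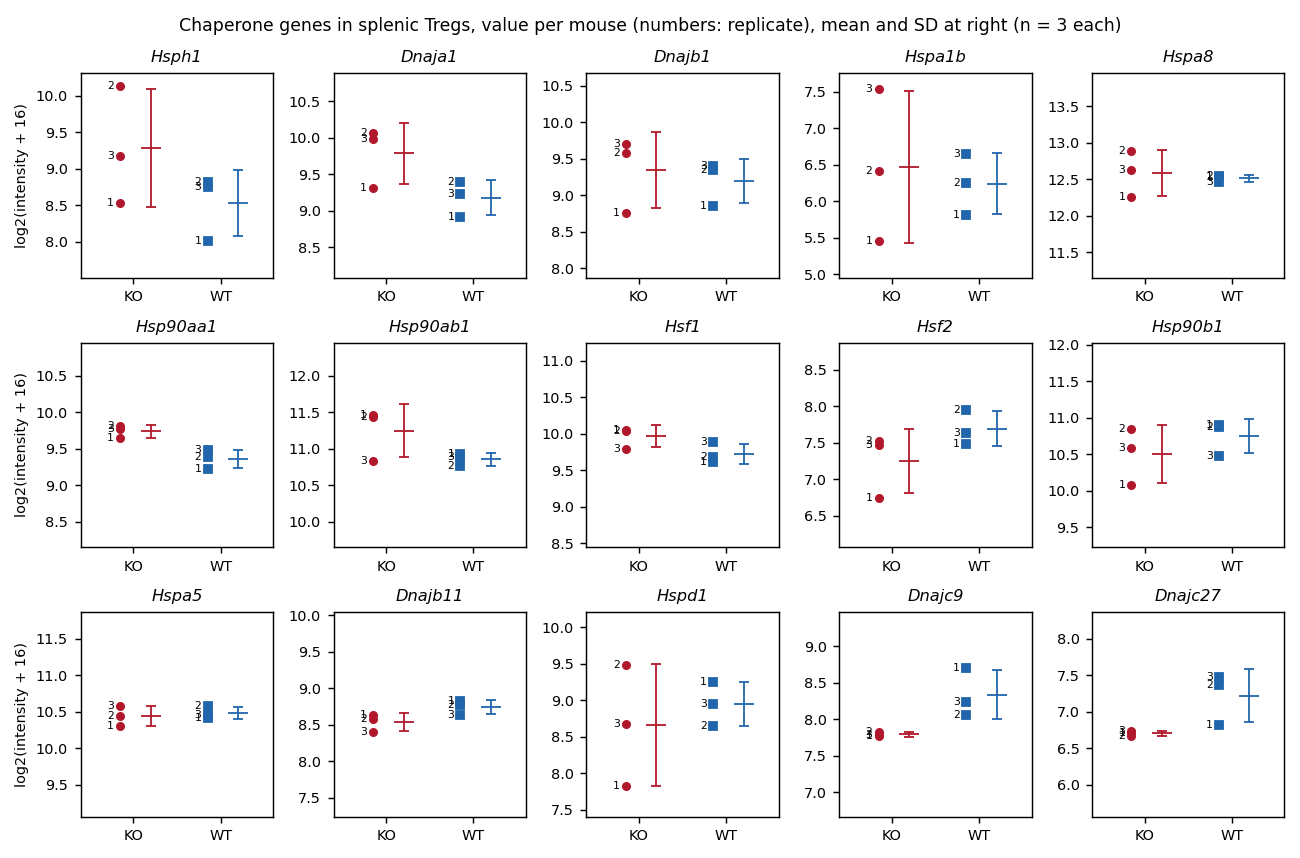
Points give log2(intensity + 16) of 15 chaperone genes in each mouse, KO in red at the left and WT in blue at the right of each panel, numbered by replicate, with the mean and SD beside them (n = 3 each); the y axes of the panels have different ranges. KO and WT points are apart in Hsp90aa1, Dnajc9, Dnajc27 and, by a very small margin, Dnajb11. KO1 is the lowest KO point in every panel except Hsp90ab1, Hsf1, Dnajb11 and Dnajc27.

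Of the 3 HSP110 genes, Hsph1 had the largest positive difference among all 64 members. HSPH1 is the heat-inducible HSP110 protein, an exchange factor that works with HSP70 in taking aggregates apart. It had 8.53, 10.13 and 9.18 in KO Tregs, against 8.01, 8.82 and 8.75 in WT Tregs. KO2 and KO3 stood above all WT arrays, and KO1 lay among them. The means were 9.28 ± 0.80 in KO and 8.53 ± 0.45 in WT Tregs (SD, n = 3 each), a difference of 0.75 (95% interval -0.06 to 1.57, adjusted p = 0.515, limma). It ranged from 0.33 without KO2 to 1.13 without KO1. All 17 of its probe sets were higher in KO on average, in KO2 all 17 exceeded every WT array and in KO3 15 did, while in KO1 only 5 did and 7 lay below every WT array. Hspa4 and Hspa4l, the other family members, differed by -0.08 (adjusted p = 0.880) and 0.01 (adjusted p = 0.990).

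Of 54 tested members with at least 5 probe sets, Hsph1 and Dnajb1 had every probe set higher in KO, and none had every one lower. Among all 10629 tested genes with as many probe sets the shares were 1.48% and 4.08%. Hspb8, which was too dim to test, had all 6 of its probe sets lower. The probe sets of a gene measure the same 6 mice, so their number does not add replicates.

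Of 8 tested HSP70 genes 3 had negative and 5 positive differences, with a median of 0.05. Hspa8, the constitutive cytosolic HSP70 (HSC70), had 12.26, 12.89 and 12.63 in KO Tregs, against 12.53, 12.55 and 12.46 in WT Tregs. KO arrays lay on both sides of the narrow WT range. The difference was 0.08 (-0.31 to 0.47, adjusted p = 0.899, limma) and -0.07 without KO2. The heat-inducible pair Hspa1a and Hspa1b, nearly identical in sequence, cannot be measured apart with certainty on this array. Hspa1b had 5.45, 6.41 and 7.54 in KO Tregs, against 5.81, 6.25 and 6.64 in WT Tregs, so the groups overlapped fully. Its difference of 0.23 (-0.75 to 1.21, adjusted p = 0.882) rested on 2 probe sets with opposite signs. Hspa1a lay under the filter and was not tested. One Hspa1a probe set (17344134) had intensities of 60.2, 210 and 203 in KO Tregs, against 30.3, 73.0 and 60.2 in WT Tregs. An Hspa1b probe set (17344127) had 49.7, 436 and 440 in KO Tregs, against 31.6, 147 and 118 in WT Tregs. In both, KO2 and KO3 exceeded every WT array and KO1 did not, and neither passed the test over probe sets (adjusted p = 0.662 and 0.773). A probe set shared by both genes (17336822) went the other way, with 63.0, 63.0 and 55.5 in KO Tregs, against 105, 70.8 and 82.9 in WT Tregs.

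HSPA5 (BiP) is the HSP70 of the endoplasmic reticulum. Hspa5 had 10.31, 10.44 and 10.58 in KO Tregs, against 10.42, 10.58 and 10.46 in WT Tregs, a difference of -0.04 (-0.35 to 0.27, adjusted p = 0.938). The groups overlapped, although 17 of its 18 probe sets were lower in KO, and KO1 was below all WT arrays in 16 of them. With the mean of probe sets the difference was -0.32 (adjusted p = 0.543, limma). The mitochondrial HSP70 gene Hspa9 (mortalin) had 10.03, 9.94 and 10.20 in KO Tregs, against 9.98, 9.80 and 9.999 in WT Tregs. It differed by 0.13 (adjusted p = 0.777), with 6 probe sets higher and 13 lower. The smallest p-values of the family belonged to Hspa13, an HSP70-like protein of microsomes, at -0.44 (adjusted p = 0.610), and Hspa12a, a distant relative, at -0.17 (adjusted p = 0.721). Neither separated the groups.

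Mitochondrial HSP60 and HSP10, the chaperonin and its lid, are encoded by Hspd1 and Hspe1. Hspd1 had 7.82, 9.48 and 8.67 in KO Tregs, against 9.25, 8.65 and 8.94 in WT Tregs. The KO arrays spread over more than the whole WT range, with KO1 lowest and KO2 highest of the 6. The difference was -0.29 (-1.08 to 0.50, adjusted p = 0.799, limma) and 0.13 without KO1. Hspe1 had 9.15, 9.31 and 8.92 in KO Tregs, against 9.13, 8.96 and 8.83 in WT Tregs, a difference of 0.15 (-0.20 to 0.50, adjusted p = 0.760). Neither gene of the pair separated the groups.

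Small heat shock proteins hold unfolded proteins without using ATP. Of 8 genes, 6 were tested, 2 with negative and 4 with positive differences and a median of 0.05. Hspb1 (HSP25 in the mouse) had 6.87 to 7.49 in KO Tregs, against 6.84 to 7.38 in WT Tregs, which overlapped fully (difference 0.04, adjusted p = 0.958). Hspb2, a muscle-enriched form, differed by -0.25 (adjusted p = 0.624) and Hspb6 by 0.20 (adjusted p = 0.692). Hspb7 and Hspb8 lay under the filter.

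The type A DnaJ proteins are the closest relatives of bacterial DnaJ. Dnaja1, a farnesylated cytosolic co-chaperone of HSC70, had 9.31, 10.07 and 9.99 in KO Tregs, against 8.92, 9.39 and 9.24 in WT Tregs. KO2 and KO3 lay above all WT arrays, and KO1 lay just under WT2. Means were 9.79 ± 0.42 in KO and 9.18 ± 0.24 in WT Tregs (SD, n = 3 each), and the difference was 0.61 (0.12 to 1.10, unadjusted p = 0.0202, adjusted p = 0.360, limma), a ratio of 1.52. Its 15 probe sets disagreed in KO1. There 3 exceeded and 10 lay below all WT arrays, while KO2 and KO3 exceeded all WT arrays in 13 each. With the mean of probe sets the difference was 0.20. The probe set 17412779 had the smallest p-value of all 855, with intensities of 1376, 1059 and 1128 in KO Tregs, against 469, 572 and 583 in WT Tregs. It differed by 1.11 and did not pass over all 269751 probe sets (adjusted p = 0.425, limma), of which 0.00111% passed. No member probe set did. The other type A genes differed less: Dnaja2, also cytosolic, by -0.19 (adjusted p = 0.747) and by 0.01 without KO1, Dnaja3, of mitochondria, by 0.02 and Dnaja4 by 0.13.

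**Figure D3:**
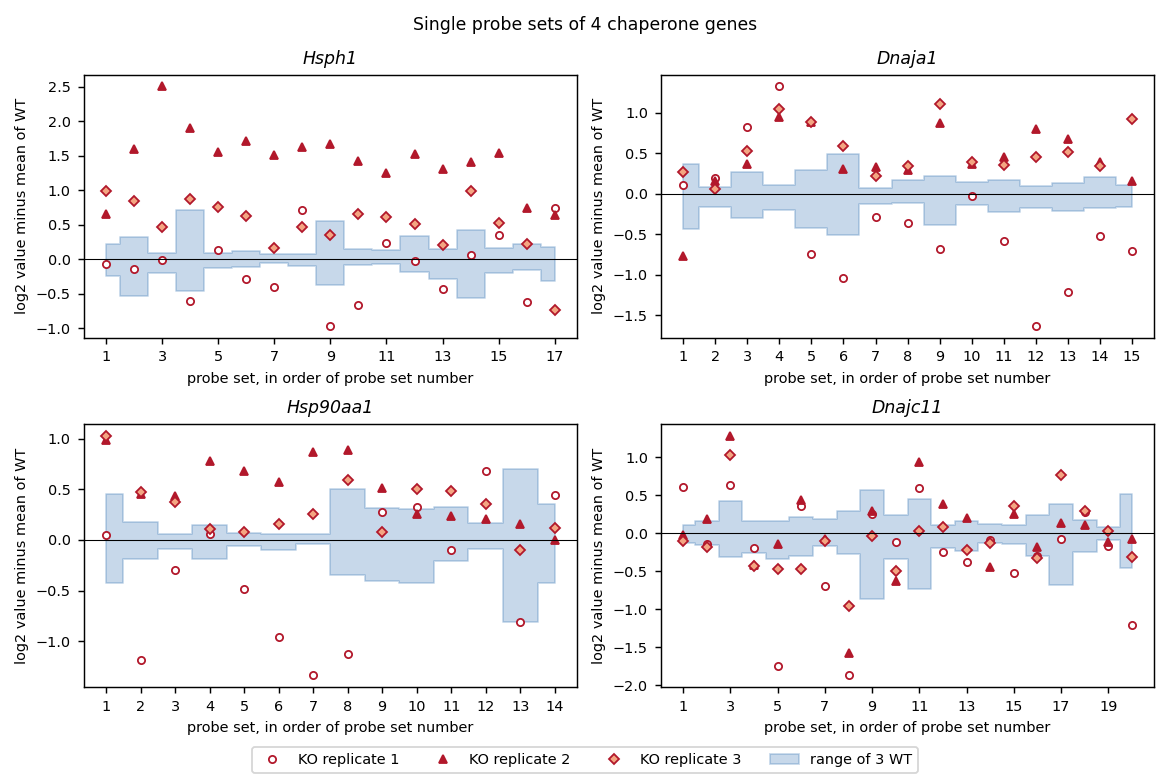
Each x position is 1 probe set of Hsph1, Dnaja1, Hsp90aa1 or Dnajc11, in order of probe set number, and the y axis gives the log2(intensity + 16) value minus the mean of WT; symbols are the 3 KO mice and the band is the range of the 3 WT mice. In Hsph1 and Dnaja1 the KO2 and KO3 symbols lie mostly above the band, KO1 lies below it in 7 of 17 and 10 of 15 probe sets, and Dnajc11 has 1 probe set far below the band in all 3 KO mice.

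Type B DnaJ genes, which include the stress-inducible HSP40, gave 7 negative and 4 positive differences among 11 tested, with a median of -0.11 (0.05 without KO1). Dnajb1, the inducible HSP40, had 8.76, 9.58 and 9.70 in KO Tregs, against 8.85, 9.35 and 9.40 in WT Tregs. KO1 and WT1 were the low arrays, and the groups overlapped. The difference was 0.15 (-0.42 to 0.72, adjusted p = 0.865, limma), and it was -0.03 without KO3 and -0.02 without WT1. Dnajb6, which suppresses aggregation of polyglutamine proteins, had 7.52, 7.98 and 7.89 in KO Tregs, against 7.74, 7.63 and 7.68 in WT Tregs (difference 0.11, adjusted p = 0.833). It was -0.10 with the mean of probe sets. Dnajb3, a testis-enriched gene, had 7.04, 6.78 and 6.77 in KO Tregs, against 6.65, 6.40 and 6.61 in WT Tregs, every KO array above every WT array (difference 0.31, adjusted p = 0.501), and -0.26 on the 1 of its 3 probe sets that was bright. Dnajb11, the ERdj3 co-chaperone of BiP, had 8.63, 8.57 and 8.40 in KO Tregs, against 8.82, 8.76 and 8.64 in WT Tregs. Its KO arrays all lay below the WT arrays by a small margin (difference -0.21, adjusted p = 0.636). Dnajb9, the ERdj4 protein of the endoplasmic reticulum, is given because of 1 array and was chosen after its values were seen. It had 8.63, 10.65 and 10.38 in KO Tregs, against 10.46, 10.60 and 10.34 in WT Tregs, and its difference of -0.58 became 0.05 without KO1.

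The DNAJC genes, which share little beyond the J domain, had negative differences in 21 of 25 tested members (84.0%, beside 59.6% of all genes). Their median was -0.14 (-0.05 over all genes) and -0.11 without KO1 (-0.01 over all genes), and it stayed between -0.21 and -0.09 when each array was left out in turn. The count of negative differences leaned in part on single arrays, KO1 among them. Without KO1, Dnajc24 (0.0023), Dnajc10 (0.0091), Dnajc21 (0.0428) and Dnajc19 (0.40) turned from negative to positive. Without KO3, Dnajc12 (0.0491), Dnajc14 (0.073), Dnajc15 (0.0115), Dnajc17 (0.0165) and Dnajc30 (0.12) did so. Without WT2, Dnajc12 (0.0496), Dnajc14 (0.0891), Dnajc19 (0.0521) and Dnajc30 (0.0037) did. An unadjusted p under 0.05 was found for 3 of the 25, all lower in KO, beside 7.67% of all genes. Each of these 3 had all KO arrays below all WT arrays. Dnajc9, which also acts as a histone H3 and H4 chaperone and recruits HSP70 to them, had 7.77, 7.83 and 7.78 in KO Tregs, against 8.71, 8.06 and 8.24 in WT Tregs. The KO values were nearly alike, and WT1 was the highest. Its difference was -0.54 (-0.94 to -0.15, unadjusted p = 0.0123, adjusted p = 0.307, limma). Dnajc27, a Rab-like GTPase with a J domain, had 6.71, 6.67 and 6.73 in KO Tregs, against 6.81, 7.37 and 7.48 in WT Tregs. WT1 came close to the KO values. The difference was -0.52 (-0.93 to -0.11, unadjusted p = 0.0184, adjusted p = 0.348). Dnajc18 had 7.69, 7.56 and 7.38 in KO Tregs, against 7.83, 7.92 and 8.07 in WT Tregs, a difference of -0.39 (-0.72 to -0.07, unadjusted p = 0.0222, adjusted p = 0.369). When the mean of probe sets stood for a gene, none of these 3 kept an unadjusted p under 0.05, with differences of -0.16 (Dnajc9), -0.22 (Dnajc27) and -0.24 (Dnajc18). On bright probe sets Dnajc27 differed by -0.05 and Dnajc18 by -0.17, and both lost it there too, while Dnajc9 kept it at -0.54.

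Dnajc3 (p58IPK), a co-chaperone of BiP and inhibitor of eIF2alpha kinases, had 9.92, 9.94 and 10.13 in KO Tregs, against 9.91, 10.03 and 9.78 in WT Tregs (difference 0.09, adjusted p = 0.845, limma). Dnajc5, the cysteine string protein of secretory vesicles, had 10.02, 9.99 and 10.04 in KO Tregs, against 9.83, 9.93 and 9.73 in WT Tregs. By gene value all its KO arrays exceeded all WT arrays by a narrow margin. The difference was 0.19 (-0.10 to 0.48, adjusted p = 0.649), and 0.05 with the mean of probe sets. Of its 12 probe sets 8 were higher and 4 lower in KO, and none had every KO array above every WT array. Dnajc24, which takes part in diphthamide synthesis and was likewise chosen after its values were seen, had 6.71, 8.31 and 8.49 in KO Tregs, against 8.34, 8.73 and 8.13 in WT Tregs. Its difference was -0.56, and 0.0023 without KO1.

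The members Dnajc11, Dnajc16 and Hspb7 lie within 10 Mb of Park7 on chromosome 4 in the RefSeq table. Dnajc11, which is found with the mitochondrial MICOS complex, had 7.25, 7.77 and 7.61 in KO Tregs, against 7.81, 7.94 and 7.71 in WT Tregs (difference -0.28, adjusted p = 0.598, limma). One of its 20 probe sets (17422025) had intensities of 43.3, 56.8 and 96.0 in KO Tregs, against 164, 197 and 250 in WT Tregs, a difference of -1.47 (adjusted p = 0.497 over probe sets). Another (17422018) differed by 0.98. Dnajc16 had 8.19, 8.11 and 8.20 in KO Tregs, against 8.21, 8.26 and 8.34 in WT Tregs, every KO array below every WT array by a narrow margin (difference -0.10, adjusted p = 0.811).

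KO1 was the lowest of the 6 arrays in 27 of 64 members (42.2%, against 38.2% of all genes), and KO2 was the highest in 18 (28.1%, against 14.9% of all genes). By probe set, KO1 lay below all WT arrays in 46.5% of the 855 member probe sets, against 35.0% of all probe sets with 1 symbol. KO2 lay above all WT arrays in 30.8% of them, against 25.1%. Median shifts of the 64 members from the WT mean were -0.15 in KO1, 0.09 in KO2 and -0.08 in KO3, against -0.06 in WT1, 0.09 in WT2 and -0.02 in WT3. Those of all tested genes were -0.12 in KO1, 0.0002 in KO2 and -0.01 in KO3, against -0.05 in WT1, 0.03 in WT2 and 0.02 in WT3.

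**Figure D4:**
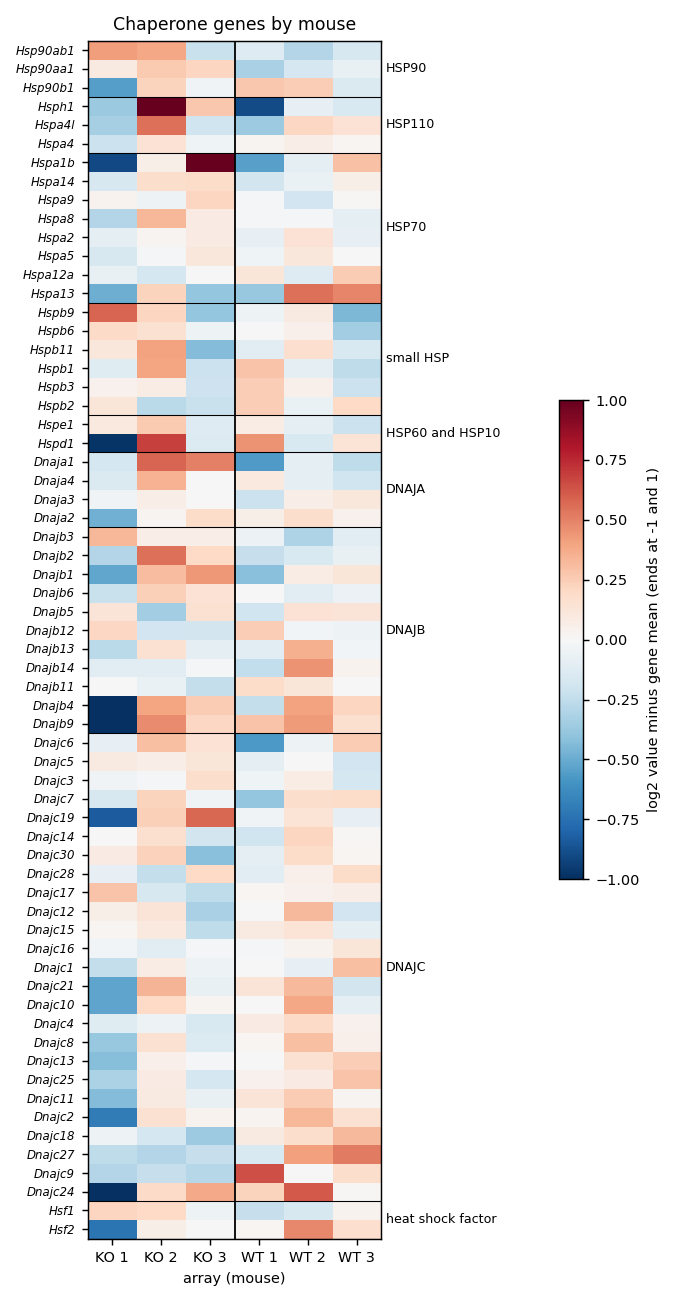
Rows are the 64 tested chaperone genes grouped by family, columns the 3 KO and then the 3 WT arrays, and colour gives the log2(intensity + 16) value minus the gene's mean over the 6 arrays, with colours ending at -1 and 1. KO1 is the lowest array in 27 of the 64 rows, and KO2 is red in Hsph1 and Hspd1.

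No partner of these chaperones passed the test either. Among 36 tested co-chaperones of HSP70 and HSP90, 19 differences were negative and 17 positive (median -0.03), and none passed the adjusted threshold. At an unadjusted p of 0.05, 2 of the 36 were higher and 2 lower in KO, beside 2.99% and 7.67% of all genes. Fkbp5, an HSP90-bound immunophilin that restrains steroid receptors, had 8.13, 8.24 and 8.54 in KO Tregs, against 8.76, 9.07 and 9.01 in WT Tregs (difference -0.64, adjusted p = 0.196, limma). Its relative Fkbp4, which aids receptor transport, lay on the other side of WT, with 9.27, 9.34 and 9.39 in KO Tregs, against 8.86, 8.81 and 8.94 in WT Tregs (difference 0.46, adjusted p = 0.247). Bag3, an HSP70 exchange factor for selective autophagy and itself a target of HSF1, had 8.75, 8.63 and 8.54 in KO Tregs, against 8.98, 9.15 and 9.11 in WT Tregs (difference -0.44, adjusted p = 0.287). These 3 were named for the smallest p-values of the 36, and in them the groups did not overlap. Over all genes every KO array lay above every WT array in 6.09%, and below in 11.3%.

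Of 14 tested genes of the cytosolic chaperonin TRiC and of prefoldin, which hands it nascent actin and tubulin, 10 differences were negative (median -0.07) and 1 had an unadjusted p under 0.05. That gene, Pfdn5, had 9.36, 9.84 and 9.64 in KO Tregs, against 10.12, 10.09 and 10.15 in WT Tregs (difference -0.50, adjusted p = 0.284). Tcp1 differed by -0.27 and Pfdn1 by 0.16. Of 14 mitochondrial chaperone partners and proteases 10 were negative as well (median -0.16), 1 with an unadjusted p under 0.05, the protease gene Htra2 at -0.39 (adjusted p = 0.344). Yme1l1 differed by -0.56 and Hscb by -0.38, both with overlapping groups. A list of 13 other tested stress-responsive genes, which shares Fkbp4 and Bag3 with the co-chaperones and includes the cold-induced RNA-binding proteins Cirbp and Rbm3, had 8 negative and 5 positive differences (median -0.04). At an unadjusted p of 0.05, 3 of the 13 were lower and 2 higher in KO, beside 7.67% and 2.99% of all genes. None passed the adjusted threshold. Cirbp had 8.82, 8.77 and 8.78 in KO Tregs, against 9.34, 9.39 and 9.54 in WT Tregs. Its groups were well apart, yet the difference of -0.63 did not pass (adjusted p = 0.117).

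Immediate early genes, which respond to handling and activation within minutes, and markers of other cells were read beside these values. Of 24 tested immediate early genes 10 differences were negative and 14 positive (median 0.07), and none passed the adjusted threshold. Of the 24, 3 were higher in KO at an unadjusted p of 0.05, beside 2.99% of all genes. Those were Fosb (0.55, adjusted p = 0.273, limma), Fos (0.39, adjusted p = 0.411) and Jun (0.35, adjusted p = 0.461). The summed intensity of the immediate early genes was 31569 to 33052 in KO arrays, against 28474 to 30094 in WT arrays, with no overlap. Sums here and below run over all genes of a list on the array, tested or not. B cell and antigen-presentation markers were lower in KO in all 7 tested genes, with sums of 3425 to 4118 in KO arrays, against 5604 to 5937 in WT arrays. The antigen-presentation genes H2-Ab1 (-1.24) and H2-Aa (-1.26) passed. The B cell markers Cd79a (-0.23, adjusted p = 0.764, limma) and Cd79b (-0.17, adjusted p = 0.763) did not, and their groups overlapped. All 6 tested macrophage markers had negative differences, with sums of 570 to 685 in KO arrays, against 711 to 1046 in WT arrays, and Vcam1 (-1.15) passed. Of 8 NK and cytotoxic markers 6 were negative, with sums of 1987 to 2956 in KO arrays, against 3384 to 4684 in WT arrays, and Gzmk (-2.09) passed. No marker of these 3 lists was at 0 on any array. On each array 0.0% of all probe sets were at 0, so this does not show that such cells were present. The part of these cells and of handling in the chaperone values was not tested. T cell markers gave 4 negative differences of 5 and Treg markers 7 of 8, none of them past the threshold. Lower sums were not limited to markers of other cells. The T cell markers summed to 21577 to 24763 in KO arrays, against 24956 to 25636 in WT arrays, also without overlap. Sums of the 2 CD8 T cell markers were 361 to 436, against 458 to 505. Those of the Treg markers overlapped, with 25549 to 26630 in KO arrays, against 26624 to 27026 in WT arrays.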

How the data were processed

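Total RNA of sorted Tregs was hybridised to Affymetrix Mouse Gene 2.0 ST arrays, 1 per mouse. The deposited intensities are 1 value for each exon-level probe set; per the labels PLIER made them, and the submitters' processing notes name Affymetrix Expression Console 1.4. Background correction, normalization between arrays and genome build are not given in the sources used here. Symbols came from the platform annotation: it gives a single symbol for 233753 of the 269751 probe sets, several for 5106 and none for 30892. All 74 member symbols were found in the RefSeq table.

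From the deposited intensities log2(intensity + 16) was taken, and the median over all single-symbol probe sets stood for the gene. Genes whose mean was under the 40th percentile (5.90) were dropped. The test of KO against WT was a two-sided limma fit (version 3.58.1, R 4.3.3, lmFit with eBayes) over all genes or all probe sets, with Benjamini-Hochberg adjustment and a threshold of 0.05. All adjusted p-values come from limma. Fits were tested on simulated data. Each array stands for its own mouse in the labels, and the number of arrays, 3 in each group, limits the precision.

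The members and gene lists were chosen with earlier results of these data known. Named in the text are Park7, members with an unadjusted p under 0.05, the 2 members with the smallest p in each family, a set of 20 well-known members whatever their values, and from each other list the genes past the threshold or else the 3 with the smallest p. Other members are said to have been chosen after their values were seen, or are named for a change under an alternative. The rest are named because they complete a family, a count of groups that do not overlap or the neighbourhood of Park7. Alternatives changed the pseudocount (1 or 64), the filter (none, or the 60th percentile), the summary of probe sets (their mean, or bright ones only), the normalization (quantile or median centring) and the variance model, or took the replicate number as a block, or left out each array.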

Additional observations from a re-analysis of the deposited data

Results flagged for a closer look

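A pair of probe sets that carry a member's symbol together with another gene's were not used for any gene, and in both every KO array lay above every WT array. The probe set 17412777, annotated to Mir207 and Dnaja1, had intensities of 799, 646 and 680 in KO Tregs, against 428, 417 and 565 in WT Tregs, a log2 difference of 0.58. Its array order differed from that of the Dnaja1 gene value, since KO1 was the highest here. The probe set 17366010, annotated to Hspa12a and Gm19925, had 2094, 1958 and 1945 in KO Tregs, against 1689, 1913 and 1491 in WT Tregs, a log2 difference of 0.24, while the Hspa12a gene value differed by -0.17. Of the 20 such shared probe sets, these 2 had every KO array above every WT array, as 6.17% of all probe sets did, and 3 had every KO array below, as 7.64% of all did. Only the first kind was flagged. The 3 lower ones differed by -0.75 (Wbscr22 and Dnajc30), -0.41 (Hspa1a and Hspa1b) and -0.33 (Gm5129 and Dnajb6).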

How the results depend on the processing

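No chaperone gene passed the adjusted threshold under any of 17 alternatives, and the smallest adjusted p of a member was 0.0727, with array weights. The count over all genes, 38, became 60 with the mean of probe sets and 125 with array weights, and ranged from 4 to 37 when each array was left out. Members with an unadjusted p under 0.05, 5 in number, ranged from 2 to 10 when each array was left out. With the mean of probe sets they were 5 other genes, Dnajb13, Dnajb14, Dnajc10, Dnajc4 and Dnajc8, all lower in KO. With the replicate number as a block (replicate block) 67 genes passed the adjusted threshold, and 8 members had an unadjusted p under 0.05. The share of all genes at an unadjusted p was counted in the main setting only. The member counts under the alternatives therefore have no background beside them. KO and WT arrays of the same number had deviation correlations of 0.15, 0.17 and 0.01. Those of different numbers ranged from -0.19 (KO1 with WT2) to 0.09 (KO3 with WT2). KO1 and KO2 correlated best with the WT array of the same number, and KO3 did not. These values do not settle whether the numbers pair the mice. The main fit treated the arrays as unpaired, and the block was an alternative.

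The HSP90 median was 0.10 and the HSP70 median -0.11 with the mean of probe sets, and the HSP70 median ranged from -0.0662 to 0.10 when each array was left out. Of 29 named members, 16 kept their sign throughout and 13 turned. With the mean of probe sets Dnajb6 was -0.10, Dnajc3 -0.0157, Hspa9 -0.0943 and Hspe1 -0.0786. With bright probe sets Dnajb3 was -0.26, Hspd1 0.0091 and Hspe1 -0.0069. Hspa1b was -0.34 with a pseudocount of 1, and Hspa5 0.0042 with array weights. When each array was left out, Dnaja2 ranged from -0.32 to 0.0098, Dnajb1 from -0.028 to 0.45, Hspa1b from -0.31 to 0.74, Hspa4 from -0.17 to 0.0113, Hspa5 from -0.11 to 0.026, Hspa8 from -0.0662 to 0.25, Hspb1 from -0.15 to 0.19 and Hspd1 from -0.70 to 0.13. The cause of these changes was not tested. The filter left 10 dim members untested.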
